A study of Mus musculus with 6 samples.

Results

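The 10 genes described here belong to the leukaemia inhibitory factor (LIF) and interleukin-6 (IL-6) cytokine family and were measured in tumour cells from mouse lung. They are 4 ligands (Lif, Il6, Il11 and Clcf1), 4 receptor chains (Lifr, Osmr, Il6st and Il6ra), the transcription factor Stat3 and its feedback inhibitor Socs3. These 10 genes were chosen by symbol, as the rows of the deposited count table that carry those names, out of 55487 genes, and all 10 passed the filter on low counts. The tumours came from KP mice, in the field's usage a genetically engineered model of lung adenocarcinoma. One group received the control guide sgNeo and is labelled Lkb1 wild type. The other received sgLkb1, directed at Lkb1 (gene symbol Stk11), and is labelled Lkb1 mutant. Both groups share the KP background, and cells that were positive for GFP and negative for the leukocyte marker CD45 were sorted at 11 weeks from tumour start. There were 3 bulk RNA libraries per genotype. The sources used here do not give the animals' age and sex, how many animals went into a library, which construct carries GFP or whether replicates are separate animals. Hence p-values measure the spread between these libraries, which may be technical.

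Cytokines of this family signal through the shared chain gp130, encoded by Il6st. LIF joins gp130 to the LIF receptor (Lifr), IL-6 and IL-11 first bind their own alpha chains (Il6ra and Il11ra1), and oncostatin M uses Osmr or Lifr. The receptors activate JAK kinases and then STAT3, which moves to the nucleus and induces genes that include Socs3, an inhibitor that binds gp130 and limits the signal. In the lung, IL-6 is known as a signal of injury and inflammation, and Il6 and Lif are made by stromal cells as well as by epithelium.

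Gene positions follow GENCODE M21 on GRCm38. Among the ligands, Lif lies on the plus strand at chr11:4257557-4272514, Il6 on the plus strand at chr5:30013114-30019981, Il11 on the minus strand at chr7:4772373-4782859 and Clcf1 on the plus strand at chr19:4214238-4223490. Lifr (chr15:7090614-7197489, plus) and Osmr (chr15:6813577-6874969, minus) are both on chromosome 15, and Il6st lies at chr13:112464070-112510086 (plus) and Il6ra at chr3:89864059-89913196 (minus). Stat3 (chr11:100885098-100939540) and Socs3 (chr11:117966079-117970047) are both on the minus strand of chromosome 11.

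Promoters are shown for Lif and Il6, the members that rose, and for Socs3, the classical STAT3 target. Windows of 250 bases before to 50 bases after the RefSeq start (GRCm38.p6) were at hand for 9 of the 10 members, in 11 windows; Clcf1 had none. Capitals mark the letters of 3 motifs searched on both strands, the AP-1 motif TGANTCA, the STAT motif TTCNNNGAA and the cAMP response element half-site TGACG, which also lies inside the full element TGACGTCA. The windows are read 5′ to 3′ along each gene's strand.
Lif, chr11:4257318-4257617, plus strand: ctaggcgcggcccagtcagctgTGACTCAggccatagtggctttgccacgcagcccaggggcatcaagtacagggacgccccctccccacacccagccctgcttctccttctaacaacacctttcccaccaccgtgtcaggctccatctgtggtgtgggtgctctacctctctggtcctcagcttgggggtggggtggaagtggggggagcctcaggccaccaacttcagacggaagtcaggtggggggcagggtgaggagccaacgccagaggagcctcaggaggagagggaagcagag
Il6, chr5:30012864-30013163, plus strand: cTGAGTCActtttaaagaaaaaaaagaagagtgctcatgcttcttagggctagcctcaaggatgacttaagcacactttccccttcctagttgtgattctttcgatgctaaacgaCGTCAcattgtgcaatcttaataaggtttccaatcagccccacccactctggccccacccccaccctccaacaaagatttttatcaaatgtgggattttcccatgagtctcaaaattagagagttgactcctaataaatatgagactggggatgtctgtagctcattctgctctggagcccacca
Socs3, chr11:117969317-117969616, minus strand: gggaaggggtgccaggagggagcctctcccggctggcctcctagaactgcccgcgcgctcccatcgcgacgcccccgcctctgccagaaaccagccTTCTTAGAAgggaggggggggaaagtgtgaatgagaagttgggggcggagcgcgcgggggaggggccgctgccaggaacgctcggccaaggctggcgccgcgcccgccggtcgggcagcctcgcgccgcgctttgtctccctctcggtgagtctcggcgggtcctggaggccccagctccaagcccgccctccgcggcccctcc

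The AP-1 motif began at base -228 of the Lif window and at base -249 of the Il6 window, counted from the start site. It also occurred in 1 of the 2 Il11 windows, at base -98, and in the Osmr window at base 4, and 7.81% of all 32851 windows held it. The cAMP response element half-site occurred in the Il6 window at base -135 and in the Il6ra window at base -236, against 20.8% of all windows, and no member window held the full element (1.79% of all windows). The STAT motif occurred in the Socs3 window alone among the 11 windows, at base -154, against 8.3% of all windows. The Socs3 and Osmr windows and the Il11 window with a match lie inside the GENCODE spans given above. Their positions therefore count from the RefSeq start only. A match is a description of letters, not evidence of binding.

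Among the ligands, Lif and Il6 were higher in sgLkb1 tumour cells. Of the 10 members these 2 passed the test in that direction and 0 passed in the other, whereas 15.7% of the 15978 tested genes passed (7.05% higher and 8.6% lower). The median log2 fold change of the members was 0.10, beside 0.02 for all tested genes. The share of members that passed is close to that background. The groups did not overlap for 4 of the 10 members (Lif, Il6, Il6ra and Stat3), against 36.5% of all tested genes, and the same 4 had an unadjusted p under 0.05, against 30.3% of all tested genes. The tests are edgeR's quasi-likelihood tests with Benjamini-Hochberg adjustment over all tested genes at 0.05, and levels are given as CPM, the read count of a gene scaled by library size with TMM factors.

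Lif, the ligand of the LIF receptor, was at 16.3, 33.7 and 29.2 CPM in sgNeo replicates 1, 2 and 3 and at 48.7, 50.7 and 61.5 CPM in sgLkb1 replicates 1, 2 and 3. Every sgLkb1 library lay above every sgNeo library, and sgNeo replicate 1 was the lowest of all. The log2 fold change was 1.02, sgLkb1 minus sgNeo, with a 95% interval from 0.42 to 1.63 (SE 0.26, edgeR adjusted p = 0.035). Only the fit without sgLkb1 replicate 1 kept the call among the 6 fits that each left out a library. Dropping sgNeo replicate 1, 2 or 3 gave log2 fold changes of 0.76, 1.23 and 1.10, and dropping sgLkb1 replicate 2 or 3 gave 1.09 and 0.90. In those fits the edgeR adjusted p lay between 0.052 and 0.088.

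Il6, the founding cytokine of the family, was at 2.33, 1.42 and 0.597 CPM in the sgNeo libraries, from 58, 35 and 15 reads. In sgLkb1 replicates 1, 2 and 3 the level was 16.3, 5.62 and 8.01 CPM, from 668, 214 and 279 reads. The groups did not overlap, and sgLkb1 replicate 1 stood well above the other sgLkb1 libraries. The log2 fold change was 2.78 (95% interval 1.44 to 4.13, SE 0.59, edgeR adjusted p = 0.016), a 6.89-fold higher level. Without sgLkb1 replicate 1 it was 2.25 and still passed, and the call was lost without sgNeo replicate 2 (edgeR adjusted p = 0.073). The Lif interval ended at 1.63 and the Il6 interval began at 1.44, so their changes were not separated by these intervals.

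The other ligands did not pass. Clcf1, a cytokine that acts on the ciliary neurotrophic factor receptor, was at 10.9, 18.5 and 18.1 CPM in sgNeo and at 16.5, 31.5 and 26.1 CPM in sgLkb1. Its groups overlapped, and the interval of its log2 fold change of 0.64 ran from -0.04 to 1.33 (edgeR adjusted p = 0.19). Il11, a cytokine of stromal repair, was at 0.682, 0.283 and 0.956 CPM in sgNeo and at 1.10, 1.60 and 0.918 CPM in sgLkb1, from 7 to 61 reads per library. The Il11 groups overlapped by a small margin, and the interval from -0.47 to 2.29 is too wide to tell a fall from a rise of several-fold. An exon of Clcf1 shares 311 of 3806 merged exon bases with an unnamed gene model on the same strand, so some of its reads may have been divided between them.

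**Figure D1:**
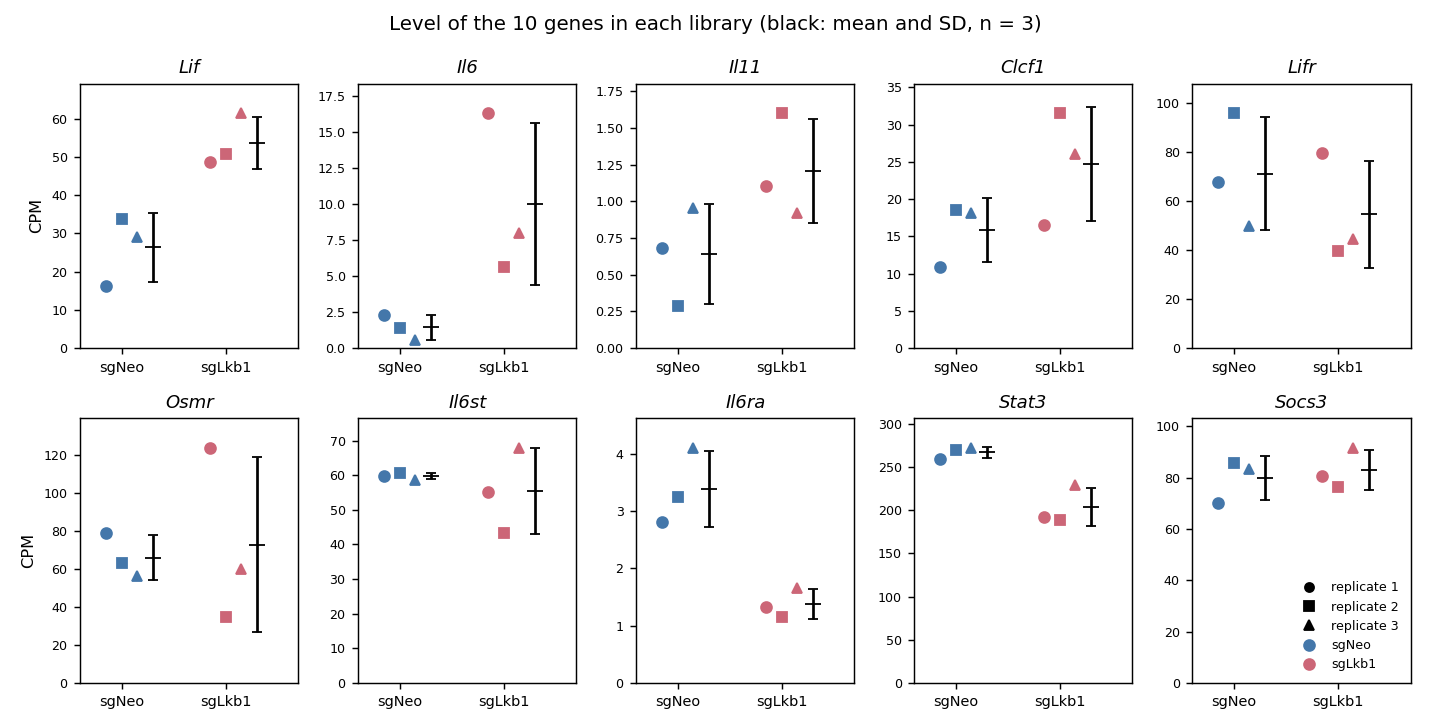
Each panel plots CPM in the 6 libraries for 1 gene, on a linear axis that starts at 0, with sgNeo in blue, sgLkb1 in red, a marker shape per replicate number and the mean with SD in black. Lif and Il6 are higher and Il6ra and Stat3 lower in all sgLkb1 libraries, and Osmr spreads from 34.7 to 124 CPM within sgLkb1.

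No receptor chain among the members passed the test in either direction. Il6st, the shared signalling chain, was at 59.9, 60.6 and 58.7 CPM in sgNeo and at 55.2, 43.2 and 67.9 CPM in sgLkb1. The sgNeo libraries were almost level and sgLkb1 libraries lay on both sides of them, with an interval of the log2 fold change from -0.53 to 0.31. Lifr, the chain that binds LIF, was at 67.5, 95.7 and 49.9 CPM in sgNeo and at 79.6, 39.6 and 44.5 CPM in sgLkb1. Its ranges overlapped broadly, and the interval from -1.11 to 0.35 holds both falls and small rises. Osmr, the oncostatin M receptor, was at 78.7, 63.2 and 56.0 CPM in sgNeo and at 124, 34.7 and 60.1 CPM in sgLkb1. The sgLkb1 libraries lay above, below and within the sgNeo range, and the sign of the fold change turned with the library left out, from -0.46 without sgLkb1 replicate 1 to 0.50 without sgLkb1 replicate 2, with no fit past the threshold. It was also slightly negative, at -0.04, with limma-voom.

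Il6ra, the IL-6 binding chain, was the one receptor chain among the members whose groups did not overlap. It was at 2.81, 3.24 and 4.10 CPM in sgNeo and at 1.32, 1.15 and 1.66 CPM in sgLkb1, from 44 to 103 reads per library. All sgLkb1 libraries were lower, but the log2 fold change of -1.29 (95% interval -2.17 to -0.41) did not pass (edgeR adjusted p = 0.057). DESeq2 gave an adjusted p of 0.021 for it. An exon of a gene model on the other strand covers 242 of the 8642 merged exon bases of Il6ra, and the strand setting of the counting is not given.

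Stat3 and Socs3 did not pass either. Stat3 was at 260, 270 and 272 CPM in sgNeo and at 193, 189 and 229 CPM in sgLkb1. The sgLkb1 libraries were all below the sgNeo libraries, and the log2 fold change was -0.39 (95% interval -0.74 to -0.05, edgeR adjusted p = 0.12). Socs3, the STAT3-induced inhibitor whose window with a STAT motif is shown above, was at 70.1, 85.8 and 83.6 CPM in sgNeo and at 80.7, 76.4 and 91.7 CPM in sgLkb1. These ranges overlapped from 76.4 to 85.8 CPM, and the interval of its log2 fold change of 0.06 ran from -0.29 to 0.40, which leaves out a rise as large as the one fitted for Lif. Stat3 shares 72 of its 9527 merged exon bases with Stat5a on the other strand. Stat5a itself was lower, at 10.0 ± 0.465 and 5.03 ± 0.360 CPM (SD, n = 3; log2 fold change -0.99, edgeR adjusted p = 0.025).

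Divided by merged exon length (GENCODE M21, GRCm38), the order of the members' levels could be compared between genes. In sgNeo the level was highest for Stat3 (28.1 ± 0.688 CPM per kb, SD, n = 3) and Socs3 (27.6 ± 2.94), whose ranges overlapped. Lifr, Lif, Osmr and Il6st followed at 6.59 ± 2.15, 6.06 ± 2.08, 5.45 ± 0.958 and 5.38 ± 0.0847 CPM per kb, each overlapping its neighbour in that order. Clcf1 came next at 4.16 ± 1.13 CPM per kb, without overlap with Il6st. Il6, Il6ra and Il11 were lowest, at 0.596 ± 0.356, 0.391 ± 0.0763 and 0.308 ± 0.163 CPM per kb, and overlapped each other in turn.

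In sgLkb1 the length-scaled level of Lif, at 12.3 ± 1.58 CPM per kb, stood alone after Socs3 and Stat3, lower than Stat3 (21.4 ± 2.32) and higher than Clcf1 (6.49 ± 2.00) without overlap on either side. Clcf1, Osmr, Lifr, Il6st and Il6 formed a chain of overlapping ranges from 6.49 ± 2.00 down to 4.11 ± 2.32 CPM per kb. In these libraries Il6 was thus at a level that overlapped that of Il6st, which it did not in sgNeo. Il6ra was lowest, at 0.160 ± 0.0301 CPM per kb, below Il11 at 0.580 ± 0.170 without overlap.

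**Figure D2:**
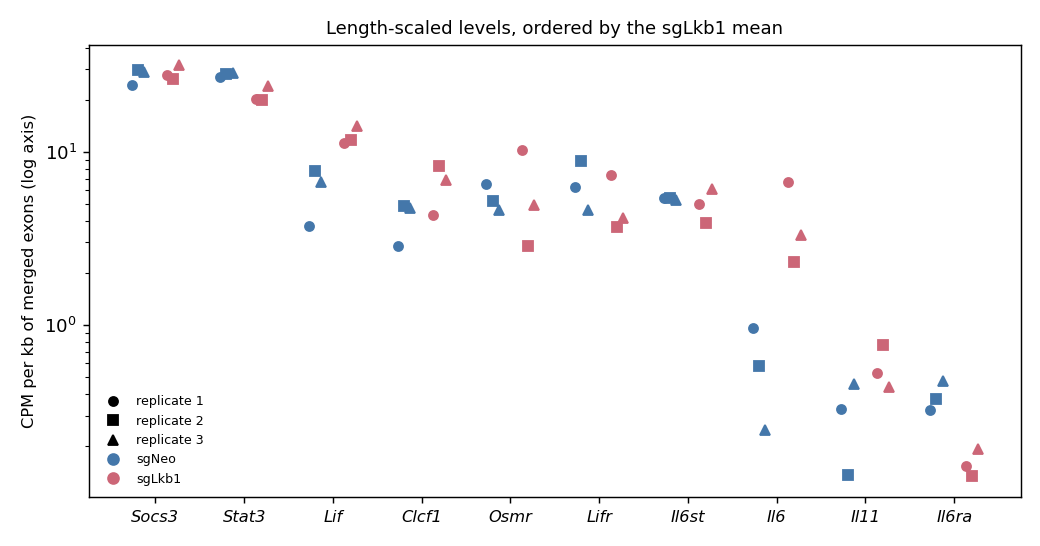
CPM per kilobase of merged exons on a log axis for the 10 genes, ordered by their sgLkb1 mean, with sgNeo in blue, sgLkb1 in red and a marker shape per replicate number. Lif sits among the receptor chains in sgNeo and above all of them in sgLkb1, where its 3 libraries lie between 11.2 and 14.1 CPM per kb.

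The profile of Lif over the 6 libraries was most like those of Fam83e, B4galt5, Elf4, Anln and Foxa3, by the root mean square difference of centred log2 CPM over the 6 libraries among 10506 genes with a mean of at least 5 CPM. The difference was 0.11 log2 units for Fam83e, a member of the FAM83 scaffold family, which was at 12.2 ± 3.64 CPM in sgNeo and at 24.5 ± 1.20 CPM in the sgLkb1 libraries (SD, n = 3). It was 0.13 for B4galt5, a galactosyltransferase, and 0.18 each for Elf4, an ETS transcription factor, Anln, an actin-binding protein of dividing cells, and Foxa3, a forkhead factor of endoderm. With 6 points per gene such matches are a description only.

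Beyond the members, 28 other genes of the family and its pathway were listed, of which 22 could be tested. Of these 1 was higher and 4 were lower, against 7.05% and 8.6% of all tested genes. The median log2 fold change of the 22 was -0.15, beside 0.02 for all tested genes. Without a library the number lower was 2 when sgNeo replicate 1 or 2 was left out and 1 when sgNeo replicate 3 or sgLkb1 replicate 2 was, while the 1 higher gene passed in all 6 fits. Adam10, a membrane protease that can cut receptors such as the IL-6 receptor from the cell surface, was the gene that rose, from 179, 188 and 163 CPM to 581, 433 and 350 CPM. Its log2 fold change was 1.36 (SE 0.21, edgeR adjusted p = 0.0049). Adam17, the related protease, did not pass, with 79.0 ± 9.19 and 76.7 ± 9.98 CPM. Il11ra1, the IL-11 binding chain, fell from 34.9, 36.5 and 32.4 CPM to 10.8, 16.6 and 23.6 CPM (log2 fold change -1.03, edgeR adjusted p = 0.038), but the call did not survive leaving out sgNeo replicate 1, 2 or 3 or sgLkb1 replicate 2 (highest edgeR adjusted p 0.12). Cntfr and Il27ra, at no more than 4.25 CPM on average, did not pass.

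Among the feedback inhibitors, 2 of 6 passed lower and none higher, against 8.6% and 7.05% of all tested genes, a list too short to set against those shares. Socs2, best known as an inhibitor induced by STAT5 downstream of growth hormone and other cytokines, was at 362, 276 and 322 CPM in sgNeo and at 167, 92.0 and 84.6 CPM in sgLkb1. The groups were far apart. The difference on the log2 scale, -1.48 with an SE of 0.28 (edgeR adjusted p = 0.0105), passed in all 6 fits with a library left out. Cish, another inhibitor known as a STAT5 target, fell from 33.9 ± 4.09 to 19.4 ± 1.82 CPM (SD, n = 3; edgeR adjusted p = 0.016), and its call was lost when sgNeo replicate 1 or 3 or sgLkb1 replicate 2 was dropped (highest edgeR adjusted p 0.072). Of the phosphatases, Ptpn2 was at 86.3 ± 13.0 and 98.6 ± 34.3 CPM and Ptpn1 at 74.1 ± 3.98 and 54.3 ± 6.76 CPM. Neither they nor Pias3, an inhibitor of STAT3 binding to DNA, passed.

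Of the 8 kinases and adaptors only Gab1, a docking protein of receptor signalling, passed. It was at 33.0, 29.3 and 27.3 CPM in sgNeo and at 19.9, 20.0 and 20.1 CPM in sgLkb1 (log2 fold change -0.58, edgeR adjusted p = 0.039), and of the fits that dropped a library only that without sgLkb1 replicate 1 kept the call (highest edgeR adjusted p 0.155). Without a filter on low counts Gab1 did not pass (edgeR adjusted p = 0.12). Jak1 was at 139 ± 3.52 and 179 ± 21.2 CPM and Shc1 at 222 ± 14.9 and 172 ± 21.4 CPM, without passing.

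Of 8 other ligands and ligand partners, 3 could be tested and none passed. Ctf1, cardiotrophin 1, was at 10.5, 8.83 and 10.9 CPM in sgNeo and at 3.55, 6.74 and 5.88 CPM in sgLkb1, lower in every sgLkb1 library without passing (edgeR adjusted p = 0.082), and it passed with DESeq2 (adjusted p = 0.036). Osm was at 1.46 ± 0.446 and 2.30 ± 0.699 CPM. Cntf, ciliary neurotrophic factor, was too low to be tested and is named here because of its values. It had 0, 3 and 0 reads in sgNeo and 43, 7 and 14 reads in sgLkb1, a 14.0-fold ratio of summed reads per scaled library (95% exact Poisson interval 4.58 to 69.7, counting error only). Without a filter on low counts its edgeR adjusted p was 0.086. Il31 had no reads in any library.

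**Figure D3:**
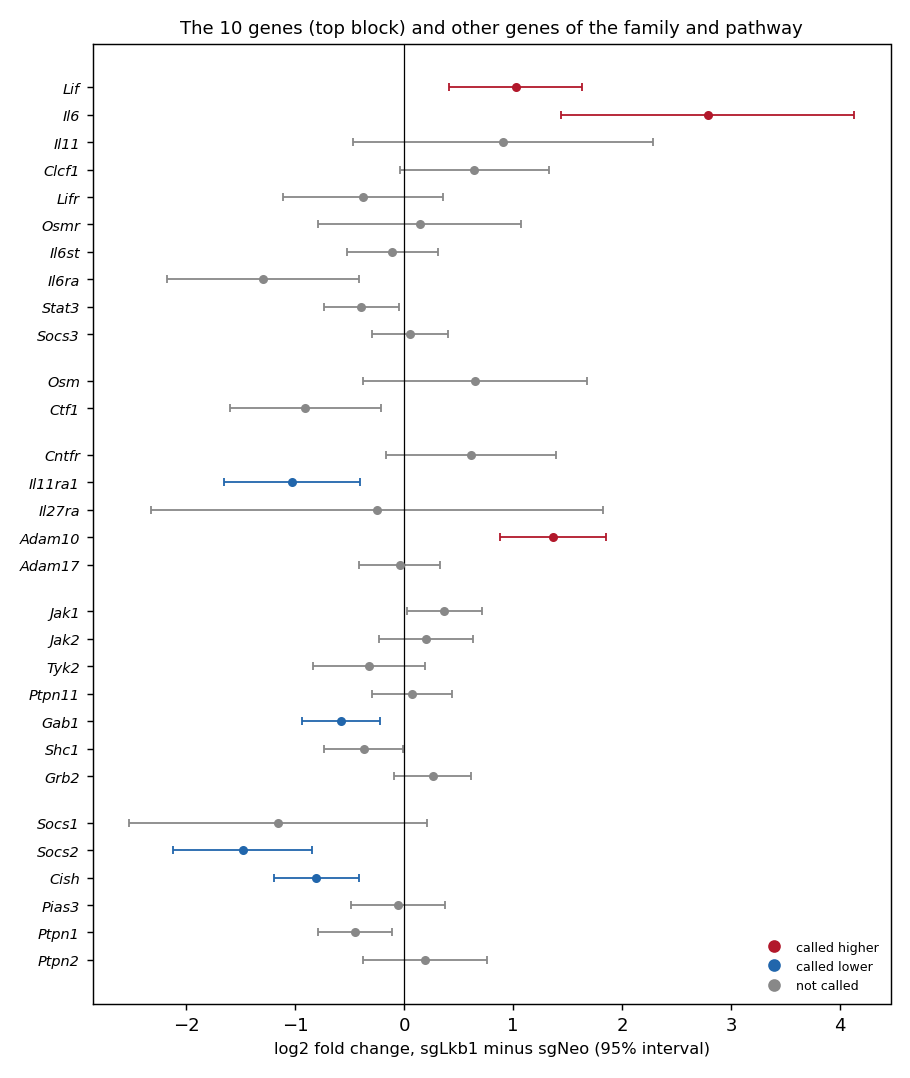
Points are log2 fold changes, sgLkb1 minus sgNeo, with 95% intervals from edgeR for the 10 members in the top block and then for other tested ligands, receptors and proteases, kinases and adaptors, and feedback inhibitors. Red and blue mark genes that passed higher and lower, grey the others. Il6 at 2.78 has the highest value and a wide interval, and Socs3 at 0.06 a narrow one around 0.

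Genes commonly named as induced by STAT3 changed in both directions. Of 30 listed, 27 could be tested, and 5 were higher and 3 lower, against 7.05% and 8.6% of all tested genes. The median log2 fold change of the list was 0.23, beside 0.02 for all tested genes. Without sgNeo replicate 1, 2 or 3 the number higher was 2. Fos, an immediate early factor of the AP-1 family, did not pass and was at 797 ± 35.5 and 976 ± 26.3 CPM (SD, n = 3). Icam1, an adhesion molecule, was at 897 ± 89.1 and 523 ± 136 CPM and Hp, haptoglobin, at 658 ± 32.5 and 478 ± 48.3 CPM, with edgeR adjusted p = 0.052 for Icam1 and 0.091 for Hp. All sgLkb1 libraries were below all sgNeo libraries for both. Icam1 passed in 6 of the 8 other settings, DESeq2 among them (adjusted p = 0.013), and Hp passed with DESeq2 (adjusted p = 0.0497). Of the 6 fits that each dropped a library, Icam1 passed in 1 (highest edgeR adjusted p 0.15) and Hp in 0.

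Of the genes that fell, Lcn2, lipocalin 2, went from 1376, 1033 and 1347 CPM to 309, 221 and 308 CPM, with the groups far apart (-2.16 on the log2 scale, SE 0.22, edgeR adjusted p = 0.00088). Muc1, a membrane mucin of lung epithelium, fell from 2406 ± 141 to 1205 ± 110 CPM (edgeR adjusted p = 0.0082). Lrg1, a secreted glycoprotein, fell from 1339 ± 186 to 684 ± 218 CPM (edgeR adjusted p = 0.044), and of the fits that dropped a library only that without sgLkb1 replicate 1 kept the call (highest edgeR adjusted p 0.14). Under RLE scaling Lrg1 did not pass (edgeR adjusted p = 0.056).

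The genes that passed higher were Timp1, Saa3, A2m, Vegfa and Birc5. Timp1, an inhibitor of matrix proteases, was at 5.17, 1.94 and 6.65 CPM in sgNeo and at 21.1, 61.4 and 103 CPM in sgLkb1. The change was 3.75 on the log2 scale (SE 0.64, edgeR adjusted p = 0.0071). Dropping sgLkb1 replicate 3 gave 3.15. Saa3, serum amyloid A3, was at 1.12, 0.405 and 0.717 CPM in sgNeo and at 5.26, 15.7 and 188 CPM in sgLkb1. Both genes were highest in sgLkb1 replicate 3, and the log2 fold change of Saa3 was 6.53 in all libraries (edgeR adjusted p = 0.018) and 3.78 without that library. Saa3 lost its call without any 1 sgNeo library (edgeR adjusted p up to 0.083) and with limma-voom (adjusted p = 0.31). A2m, a protease inhibitor, had 1 read in sgNeo and 212 reads in sgLkb1 in all, a 139-fold ratio (95% exact Poisson interval 24.7 to 5523, counting error only). It passed the filter on low counts only through the sgLkb1 libraries, where it is high, so its place among the genes higher supports nothing, and with at least 1 CPM required in 3 libraries it was not tested and 4 genes of the list were higher. Vegfa, the endothelial growth factor, rose from 126 ± 3.80 to 206 ± 23.5 CPM and Birc5, survivin, a mitotic protein, from 12.7 ± 1.47 to 22.0 ± 3.66 CPM (edgeR adjusted p = 0.017 and 0.032). Vegfa lost its call without any 1 sgNeo library (edgeR adjusted p up to 0.093), and Birc5 kept its call only without sgLkb1 replicate 1 (edgeR adjusted p up to 0.11).

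**Figure D4:**
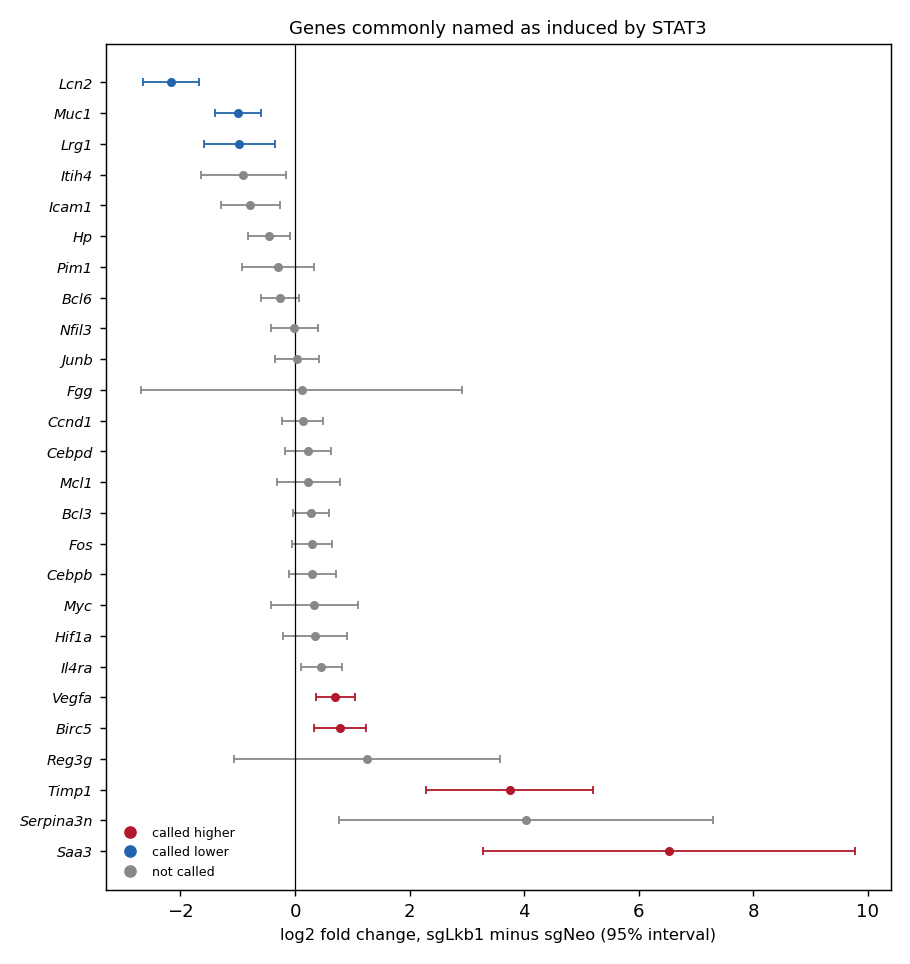
Log2 fold changes, sgLkb1 minus sgNeo, with 95% intervals from edgeR for the tested genes of the STAT3-induced list, ordered by value; A2m is left out because sgNeo held 1 read of it. Lcn2 lies lowest at -2.16 and Saa3 highest at 6.53, and most genes in between have intervals that include 0.

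Stk11, the targeted gene, averaged 61.5 ± 25.4 CPM in sgNeo against 24.8 ± 1.14 CPM in sgLkb1, lower in every sgLkb1 library (edgeR adjusted p = 0.023), though leaving out any library but sgNeo replicate 2 raised its adjusted p to between 0.053 and 0.076. Total expected counts ranged from 26007503 to 28986526 in sgNeo and from 29613678 to 41729299 in sgLkb1. The labels name no sequencing batch. Epithelial markers dominated both groups, with 6 summed at 74575 to 88202 CPM in sgNeo and 13979 to 18840 CPM in sgLkb1, a sum made up mostly of the surfactant gene Sftpc in sgNeo (75931 ± 6733 against 8691 ± 2660 CPM in sgLkb1). Of the 6 epithelial markers 1 passed higher in sgLkb1, Epcam, at 501 ± 60.2 and 1073 ± 235 CPM, and 2 passed lower, Sftpc among them. The log2 fold change was above 0 for 4 of the 6 and below 0 for 2, with a median of 0.29. The lower sum in sgLkb1 thus reflects Sftpc and not the list as a whole. Of 36 markers of other cells, 31 could be tested, 8 passed higher (Col1a1, Col1a2, Col3a1, Pdgfra, Cdh5, Kdr, Emcn and Msln) and 1 lower (Cd79a), and 5, among them Lum, Wt1, Lrrn4 and Bnc1, had no read in at least 1 library. The tested markers' median log2 fold change was 1.54, beside 0.02 for all tested genes, of which 7.05% passed higher and 8.6% lower. Ptprc, which encodes the CD45 used in the sort, was at 4.86 to 8.86 CPM in sgNeo and 4.36 to 10.4 CPM in sgLkb1. Dropping sgNeo replicate 1, 2 or 3 left 5, 2 and 3 of the markers of other cells higher, and dropping sgLkb1 replicate 3 left 4. In bulk RNA, fewer cells of a type and less RNA per cell cannot be told apart.

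The fibroblast, smooth muscle and pericyte, endothelial and mesothelial sums were higher in every sgLkb1 library than in every sgNeo library, while the leukocyte sums overlapped. Their part in the results above was not tested. The 8 fibroblast markers summed to 37.3 to 116 CPM in sgNeo and to 179, 258 and 1395 CPM in sgLkb1 replicates 1, 2 and 3. Timp1 and Saa3 were likewise highest in replicate 3. Within sgLkb1, Il6 was highest in replicate 1, the library with the lowest fibroblast sum of that group. Within sgNeo it was highest in replicate 1, the library with the highest fibroblast sum (116, 45.1 and 37.3 CPM in replicates 1, 2 and 3). Replicate numbers were not taken as a pairing, so the shared number has no meaning between groups. Rgs5, a pericyte marker named here because of its values, did not pass (edgeR adjusted p = 0.155). It was at 1.16, 0.445 and 0.0797 CPM in sgNeo, from 29, 11 and 2 reads, and at 6.26, 1.92 and 0.689 CPM in sgLkb1. A gene picked for its values is a description only and gives no support to a source of Il6. The rest of its list, Acta2, Des, Cnn1 and Myh11, was highest in replicate 3 within sgLkb1. Within sgNeo, Des and Cnn1 were highest in replicate 1, Myh11 in replicate 2 and Acta2 in replicate 3. The sum of the list was lowest in replicate 1 within sgLkb1 (26.3, 37.8 and 49.4 CPM). Without sgLkb1 replicate 3 Il6 passed, with a log2 fold change of 2.92. The fibroblast sums of sgLkb1 replicates 1 and 2 (179 and 258 CPM) were still above all those of sgNeo. The part of fibroblast RNA in the Il6 difference was not tested. The 8 endothelial markers summed to 30.6 to 52.7 CPM and 74.5 to 123 CPM. The 10 leukocyte markers summed to 29.9 to 40.1 CPM in sgNeo and to 72.3, 34.0 and 51.8 CPM in sgLkb1, highest in the library with the most Il6 and Osmr. The 5 mesothelial markers summed to 169 to 427 CPM and 814 to 1279 CPM, nearly all of it Msln, and the other 4 summed to at most 3.70 CPM except in sgLkb1 replicate 3, where they reached 39.6 CPM. The 5 smooth muscle and pericyte markers summed to 10.1 to 18.9 CPM and 26.3 to 49.4 CPM.

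**Figure D5:**
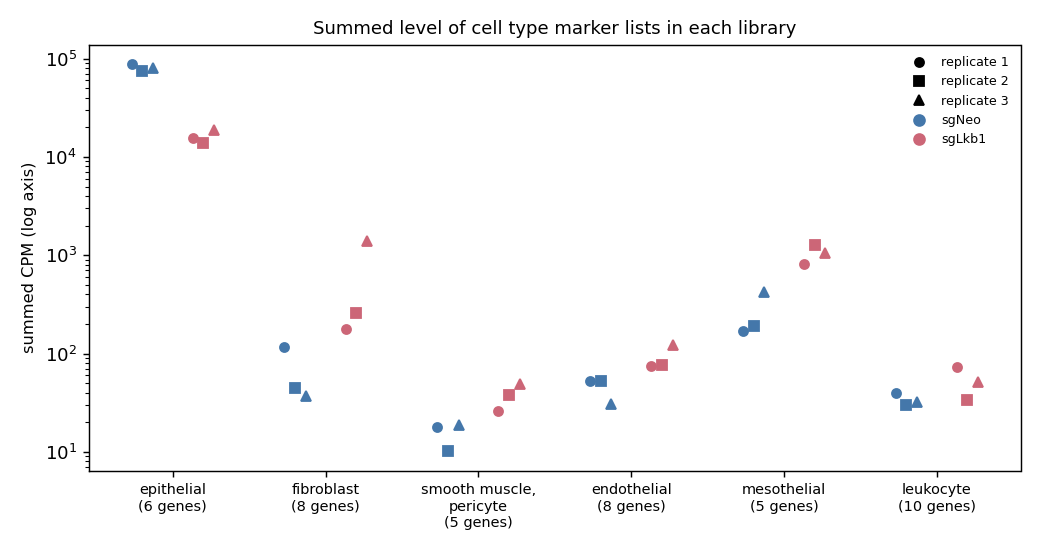
Summed CPM of each marker list per library on a log axis, with sgNeo in blue, sgLkb1 in red and a marker shape per replicate number. Epithelial markers are far above the others in every library, and the fibroblast sum of sgLkb1 replicate 3, at 1395 CPM, stands above the fibroblast sums of the other libraries.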

How the data were processed

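RNA was sequenced from sorted tumour cells, 3 libraries per genotype, with Nextera XT libraries per the labels' protocols. The deposited values are expected counts for each gene, which RSEM estimates by dividing reads that fit more than 1 gene. STAR, RSEM, FastQC, DESeq2 and build GRCm38 are named in the submitters' processing notes. Tool versions, the annotation release and the strand setting were not found in the labels. Library totals ranged from 26007503 to 41729299.

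Rounded to whole numbers, these expected counts were filtered with filterByExpr, leaving 15978 genes, and scaled by TMM. Genotypes were compared with edgeR 4.0.16 (R 4.3.3) as described in the report. Intervals at 95% use the fit's total degrees of freedom, residual plus prior, with the SE as the absolute log2 fold change over the square root of F. Members, gene lists and the rule for named genes were chosen with earlier results of these data known. The rule takes all members, each list gene that passed and up to 3 abundant others per list, and the text prints part of these. Some genes are not reported here by name, though list counts include them. Of 55487 gene IDs, 54435 matched the GENCODE M21 annotation with version, all 10 members among them. Sequences are from RefSeq. Results were recomputed with other scalings (RLE, upper quartile), without a filter or with a stricter one (1 CPM in 3 libraries), by DESeq2 1.42.0 and by voom in limma 3.58.1. A robust fit, a block for the replicate number and fits that each dropped 1 library were also run.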

Additional observations from a re-analysis of the deposited data

How the results depend on the processing

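In the 8 settings other than leaving out a library, Lif kept its direction and its call, with log2 fold changes from 1.02 to 1.08, and so did Il6, from 2.78 to 2.84. For the 9 members other than Lif, 123 of 126 recomputed values kept their direction where called and their side of the threshold; the others were Il6 without sgNeo replicate 2, Il6ra with DESeq2 and Clcf1 with the replicate block (adjusted p = 0.043). The median of all genes moved by less than 0.1 log2 units under each setting.

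Some counts moved with the tool or the filter, and the cause was not tested. DESeq2 called 1 member lower, 6 STAT3 targets lower, 5 other family genes lower, 13 markers of other cells higher and 1819 of all genes higher. Without a filter on low counts 5 STAT3 targets were lower, 18 markers higher, 2 markers lower and 1917 of all genes higher. limma-voom called 4 markers higher. With the replicate number as a block 5 STAT3 targets were lower, 3 members were higher, Lif was at 1.08 (edgeR adjusted p = 0.016), and Gab1 lost its call (edgeR adjusted p just above 0.05), as it did without a filter on low counts (edgeR adjusted p = 0.12). Lrg1 lost its call under RLE scaling (edgeR adjusted p = 0.056). Libraries of the same number did not all deviate together (correlations 0.13, -0.02 and 0.11). Libraries of unlike number had correlations from -0.17 to 0.09. The numbers were not taken as a pairing, a choice that these values do not settle.

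With a library left out, fewer samples remained. Members called higher ranged from 0 to 2 (0 without sgNeo replicate 2) and lower from 0 to 0. The Lif log2 fold change ranged from 0.76 to 1.23. Other family genes ranged from 1 to 1 higher and from 1 to 4 lower, STAT3 targets from 2 to 5 higher and from 2 to 3 lower, markers of other cells from 2 to 12 higher and from 0 to 1 lower, and all genes from 447 to 1368 higher and from 682 to 1412 lower. Low counts limit Il6, Il11 and Il6ra, the last with 44 to 103 reads per library.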
